A study of Mus musculus with 6 samples.

Results

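Tnmd-positive cells of Day 7 digits in a dish (DID) cultures were selected on their count of *Tnmd* transcripts, and they numbered 932 of the 18728 Day 7 cells that passed the filters and of 54126 such cells in the series. DID cultures are grown without scaffolds from dissociated distal forelimb mesenchyme of E11.5 CD-1 mouse embryos, pooled before plating, and independent cultures named replicate A and replicate B were sequenced at Day 2, Day 7 and Day 10 with a droplet kit that tags the 3′ end of each transcript with a molecular identifier (UMI). All 6 libraries were of the same strain, stage and tissue, with no genetic change or added agent named in the labels. Culture day was the only factor named between groups. Each day had its own libraries, so day cannot be told apart from a preparation or sequencing batch, which the labels do not give. A cell was kept at 3000 or more UMIs, at most 7500 detected genes and at most 25% of UMIs from mitochondrial genes, and was called Tnmd-positive at 2 or more *Tnmd* UMIs. Each library was then split into its Tnmd-positive cells and all other cells, so that every comparison was made within a culture. The cells are a class drawn by 1 transcript in a mixed culture, and no protein was measured here.

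*Tnmd* encodes tenomodulin, a membrane glycoprotein of the type II orientation that is known as a late marker of tendon and ligament cells. In the limb, tendon progenitors first express the basic helix-loop-helix factor gene *Scx*, then the homeobox gene *Mkx*, and later deposit type I collagen fibrils together with type III, V and XII collagens, fibromodulin and thrombospondin 4. Tendon, cartilage and the fibrous sheath around cartilage arise from neighbouring mesenchyme of the limb bud, so collagen genes are shared among them and few genes mark tendon cells alone. *Tnmd* lies on chromosome X (GRCm38 chrX:133850980-133865577, plus strand), and its annotated coding transcript has 7 exons and 1353 bases.

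SCX belongs to the factors that bind the E-box CANNTG, and the start regions of genes that were higher in Tnmd-positive cells are therefore shown beside that of *Tnmd*. Each is the RefSeq sequence on GRCm38.p6 from 250 bases before to 50 bases after a RefSeq start, read 5′ to 3′ along the gene, with every CANNTG in capitals. These starts need not equal the gene start of the annotation that gave the *Tnmd* position above. For *Igf1* that annotation starts the gene at chr10:87858265, upstream of the window shown. *Agtr2* and *Igf1* are the other marker genes of these cells, *Apod* had the largest positive fold change of the genes at 20 CPM or more, and *Cpxm2* is a further tendon differentiation marker of the lists used here.

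Tnmd, chrX:133850758-133851057, plus strand: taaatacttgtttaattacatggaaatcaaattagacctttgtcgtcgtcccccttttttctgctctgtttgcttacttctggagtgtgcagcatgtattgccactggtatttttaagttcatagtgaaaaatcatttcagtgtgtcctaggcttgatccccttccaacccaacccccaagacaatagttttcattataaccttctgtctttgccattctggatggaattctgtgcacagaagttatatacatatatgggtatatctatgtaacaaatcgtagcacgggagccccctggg
Agtr2, chrX:21484374-21484673, plus strand: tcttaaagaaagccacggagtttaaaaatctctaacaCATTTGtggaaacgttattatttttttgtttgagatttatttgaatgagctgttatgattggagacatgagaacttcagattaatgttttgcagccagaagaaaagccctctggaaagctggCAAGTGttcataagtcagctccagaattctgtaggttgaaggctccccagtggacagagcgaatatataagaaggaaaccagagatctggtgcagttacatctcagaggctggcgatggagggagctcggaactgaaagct
Igf1, chr10:87860861-87861160, plus strand: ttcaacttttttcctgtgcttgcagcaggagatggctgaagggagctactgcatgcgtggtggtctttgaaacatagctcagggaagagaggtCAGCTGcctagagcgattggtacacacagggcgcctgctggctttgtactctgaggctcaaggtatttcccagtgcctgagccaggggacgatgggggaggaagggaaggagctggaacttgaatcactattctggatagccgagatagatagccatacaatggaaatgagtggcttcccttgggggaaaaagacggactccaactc
Apod, chr16:31314759-31315058, minus strand: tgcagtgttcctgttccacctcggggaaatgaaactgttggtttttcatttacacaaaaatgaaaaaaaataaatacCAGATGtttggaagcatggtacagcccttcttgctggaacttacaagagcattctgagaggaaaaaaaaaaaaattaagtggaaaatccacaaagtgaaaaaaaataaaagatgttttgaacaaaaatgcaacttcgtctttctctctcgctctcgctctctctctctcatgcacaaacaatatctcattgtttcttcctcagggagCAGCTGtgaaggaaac
Cpxm2, chr7:132154692-132154991, minus strand: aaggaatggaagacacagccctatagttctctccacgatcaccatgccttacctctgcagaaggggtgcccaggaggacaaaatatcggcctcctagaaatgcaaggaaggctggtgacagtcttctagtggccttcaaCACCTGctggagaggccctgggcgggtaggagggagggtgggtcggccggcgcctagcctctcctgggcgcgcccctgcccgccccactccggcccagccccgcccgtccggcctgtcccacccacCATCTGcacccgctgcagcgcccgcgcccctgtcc

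The windows of *Apod* and *Cpxm2* each hold 2 E-boxes, one of them CAGATG or its reverse complement CATCTG, and those of *Agtr2* and *Igf1* hold 2 and 1 of other letters. No CANNTG is in the *Tnmd* window. CANNTG reads alike on both strands, so a match on one strand is a match on the other. Of 12 genes with a sequence (*Tnmd* and the named higher genes other than *Ccn3*), 9 hold a CANNTG (75%) and 3 hold CATCTG or CAGATG (25%), against 72.15% and 17.22% of the 27025 RefSeq windows of the same length. These matches describe letters, and binding was not measured.

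Both Day 7 libraries held a similar number of Tnmd-positive cells. Replicate A had 457 of 9355 cells (4.89%, exact 95% interval 4.46 to 5.34), and replicate B had 475 of 9373 cells (5.07%, 4.63 to 5.53). The intervals cover counting error only. Within the class the number of *Tnmd* UMIs ran from 2 to 43 in replicate A and to 55 in replicate B, with medians of 4 and 5. Exactly 2 UMIs, the values just inside the rule, were found in 122 and 116 cells, while 339 and 328 cells just outside it had exactly 1. At the upper end, 76 and 93 cells carried 10 or more. The class held 89.2% and 90.7% of all *Tnmd* UMIs of the filtered cells. These *Tnmd* values chose the cells and are given as a description.

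**Figure D1:**
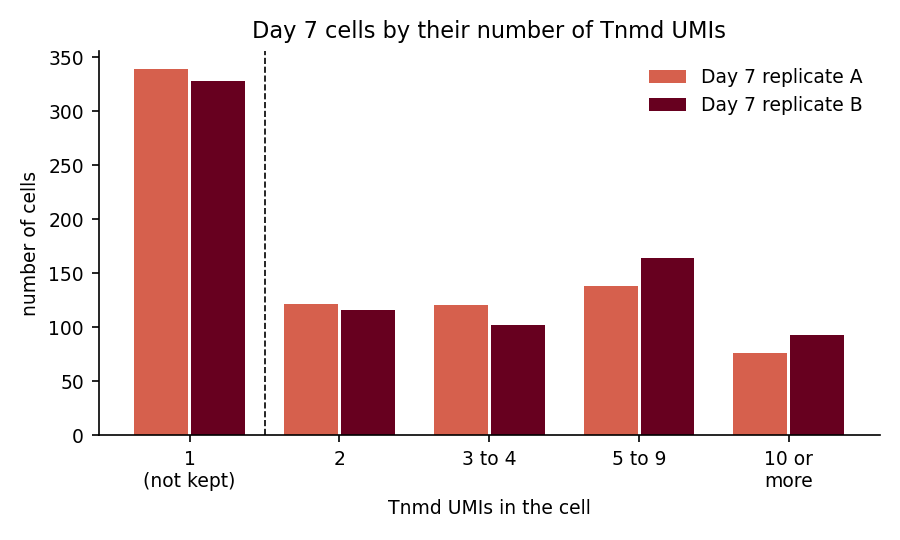
Number of Day 7 cells (vertical axis) by their count of Tnmd UMIs (horizontal axis), in replicate A (light bars) and replicate B (dark bars); cells without a Tnmd UMI are not drawn. Right of the dashed line are the Tnmd-positive cells, with 122 and 116 cells at 2 UMIs and 76 and 93 cells at 10 or more.

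Tnmd-positive cells had more UMIs per cell than the others, which bears on any rule that asks for a number of UMIs, including the one that chose them. Their median was 26689 UMIs per cell in replicate A and 27307 in replicate B, against 18951 and 17740.5 in the other cells, and the median number of detected genes was 4974 and 4931 against 3976 and 3797. The mitochondrial share was alike at 2.83% and 2.80% against 3.06% and 2.91%. After each cell was thinned to 3000 UMIs, 0.909% and 0.992% of Day 7 cells still had 2 or more *Tnmd* UMIs, compared with 0.603% and 0.831% at Day 2 and 1.83% and 1.41% at Day 10. Free RNA can place a UMI in a droplet, so the same rule was applied to cells that should lack *Tnmd*. Among macrophage-lineage cells (2 or more UMIs of both *Tyrobp* and *Fcer1g*; median 30592 and 25571 UMIs) 2 of 29 and 5 of 48 met it, or 6.90% (0.846 to 22.8) and 10.4% (3.47 to 22.7), among muscle cells (2 or more UMIs of both *Ttn* and *Myog*) none of 21 and of 2 (upper exact limits 16.1% and 84.2%), and among cells with 5 or more *Acan* and 2 or more *Matn1* UMIs, the cartilage rule, 2.44% and 2.46% at medians of 24050 and 24938 UMIs. The share in the whole culture lay within the wide macrophage intervals and above the cartilage ones (2.02 to 2.93 and 2.00 to 2.98). Since cells of both classes met the rule, the share of Tnmd-positive cells is not read as a share of tendon cells. No doublet caller was run. Cartilage-rule cells made up 24.7% and 21.1% of the Tnmd-positive and 50.8% and 44.6% of the other cells, and the part of droplets with more than 1 cell in these shares was not tested. The libraries shared 16 to 31 cell barcodes per pair, of which 22 were shared between both Day 7 libraries, and none of these 22 was Tnmd-positive in both.

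To ask how these cells differ from the rest of the culture, UMIs were summed per library and class, *Tnmd* was removed, and both classes of a library were compared as a pair by quasi-likelihood tests in edgeR, with 1 value per class from each library (n = 2 at Day 7). A gene was called at a Benjamini-Hochberg adjusted p under 0.05 and at least 1.5-fold. Levels below are UMI counts scaled to a common library total (CPM), with TMM scaling unless stated. Of 18069 genes tested, 1206 were higher (6.67%) and 1150 lower (6.36%) in Tnmd-positive cells, and the median log2 fold change of all tested genes was -0.0363. For the 5594 genes at 20 CPM or more, the log2 ratios of both cultures had a Spearman correlation across genes of 0.911, against 0.574 over all tested genes, where genes are not independent replicates. Since cartilage-rule cells were so common among the other cells, the classes were also compared without the cells of either class that met the cartilage, macrophage or muscle rule, called the non-cartilage comparison here, and its values are given beside many of the results. The name is short for that cut, which is not scaled to depth. Of all other cells, 77.0% and 70.7% had 2 or more *Acan* UMIs, more than met the cartilage rule. Of Tnmd-positive cells, 63.5% and 57.5% had as many. After thinning, 34.8% and 34.5% of Tnmd-positive cells had an *Acan* UMI, against 68.7% and 64.4% of other cells. Cartilage cells can therefore remain in that comparison, and a call kept there is not a difference from cells free of cartilage transcripts. It called 564 genes higher (3.4%) and 654 lower (3.94%) of 16590, and 885 of the 2356 genes called against all other cells were also called there, 37.6% of the first list and 72.7% of the second. A lower level in summed UMIs cannot be told apart from fewer cells with the transcript.

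The markers named for these cells, *Igf1* and *Agtr2*, were high in both cultures. *Igf1*, a secreted growth factor gene, stood at 478 and 509 CPM in Tnmd-positive cells of replicates A and B against 69.7 and 74.4 CPM in other cells (log2 fold change 2.78, SE 0.038). *Agtr2*, the gene of the angiotensin II type 2 receptor, stood at 31.8 and 33.8 CPM against 5.56 and 6.02 CPM (2.50, SE 0.092). For each gene the direction was the same in both cultures. In the non-cartilage comparison *Igf1* was 4.35-fold and *Agtr2* 3.67-fold higher, against 6.85-fold and 5.66-fold with all other cells. Both genes were named with earlier results of these data in view, so these values are a description with no test. In single cells, 29.8% and 31.4% of Tnmd-positive cells had an *Agtr2* UMI against 6.69% and 7.44% of other cells, and after thinning to equal depth 6.35% and 10.1% against 1.91% and 1.96%. *Igf1* UMIs were in 75.7% and 77.7% against 32.6% and 29.4%, and after thinning in 49.2% and 50.5% against 13.5% and 13.1%. Both transcripts were present together in 28.2% and 29.5% of Tnmd-positive cells and in 3.80% and 4.30% of other cells. *Scx* as well was present in 14.7% and 17.1% against 1.37% and 1.61%. These shares of cells with several transcripts were not thinned, and Tnmd-positive cells had more UMIs.

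The level of both markers was followed along the number of *Tnmd* UMIs, on a scale of CPM of the raw UMI total of each group of cells. *Igf1* was at 59.7 and 62.2 CPM in cells without *Tnmd*, at 178 and 202 CPM in cells with 1 UMI, at 337 and 415 CPM with 2, and at 690 and 564 CPM with 10 or more. Cells with a single *Tnmd* UMI, which the rule leaves out, were thus between the cells without one and the kept cells in both cultures. *Agtr2* ran from 4.85 and 5.32 CPM without *Tnmd* to 48.3 and 36.1 CPM at 10 or more UMIs, although in replicate A the 121 cells with 3 to 4 UMIs were at 13.5 CPM, below the 25.6 CPM of cells with 2. *Col2a1*, the main cartilage collagen gene, went the other way, from 9319 and 8678 CPM to 1695 and 1212 CPM. The bins hold cells of 1 library each, so no test was made. Their depth differed, with median UMIs per cell of 18859 and 17529.5 without *Tnmd* and of 28371.5 and 32052 at 10 or more.

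**Figure D2:**
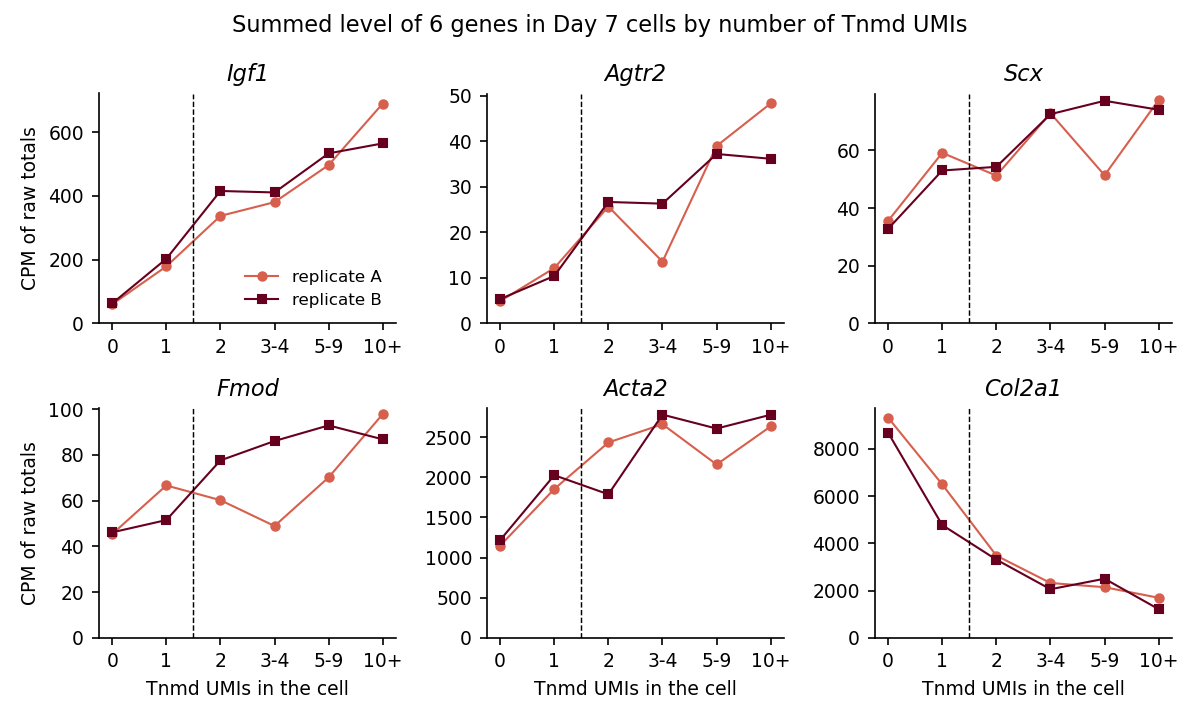
Level of 6 genes in CPM of the raw UMI total of each group of cells (vertical axes, starting at 0). Day 7 cells are grouped by their number of Tnmd UMIs (horizontal axes), for replicate A (circles) and replicate B (squares). Cells right of the dashed line are Tnmd-positive. Igf1 reaches 690 and 564 CPM at 10 or more Tnmd UMIs and Col2a1 is at 1695 and 1212 CPM there, while Scx and Fmod change less from bin to bin.

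The tenocyte label was set beside the other tendon genes, of which some were higher in Tnmd-positive cells and some were not. *Scx* was at 64.0 and 73.6 CPM in Tnmd-positive cells and at 39.4 and 36.6 CPM in the others (log2 fold change 0.86, SE 0.061, edgeR adjusted p = 4.52e-09), yet the non-cartilage comparison gave 0.22 and no call. *Mkx* was at 9.62 and 9.82 CPM against 8.96 and 8.94 CPM and was not called (0.12, edgeR adjusted p = 0.359). In the non-cartilage comparison the value of *Mkx* turned to -0.51 (edgeR adjusted p = 0.00357), and with other cells drawn to the same depth it was 0.29 (edgeR adjusted p = 0.0228), both under the 1.5-fold limit. The fibromodulin gene *Fmod*, whose product binds type I collagen, was higher at 69.6 and 90.3 CPM against 49.8 and 50.3 CPM (0.67), and *Thbs4*, the gene of thrombospondin 4, at 28.6 and 43.4 CPM against 9.84 and 5.94 CPM (2.22). Both stayed called in the non-cartilage comparison (0.63 and 1.69). *Kera*, the keratocan gene, was near absent at 1.43 and 0.358 CPM. A score of 7 tendon genes (*Scx*, *Mkx*, *Fmod*, *Kera*, *Thbs4*, *Col14a1* and *Htra3*), counted per cell after thinning, averaged 0.934 and 1.26 UMIs in Tnmd-positive cells and 0.670 and 0.591 in the others, and it was 0 in 46.6% and 42.3% of Tnmd-positive and 60.8% and 64.5% of other cells. The cells are therefore called by their rule, Tnmd-positive.

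The gene lists were chosen with earlier results of these data known, so their counts are a description and not independent evidence of a cell type. Counts of calls in this and the following lists stand beside the shares over all tested genes. These were 6.67% higher and 6.36% lower against all other cells, and 3.4% and 3.94% in the non-cartilage comparison. Of the 10 tendon transcription factor genes, 3 were higher and none lower, with a median log2 fold change of 0.28, and in the non-cartilage comparison 2 were higher and none lower, with a median of -0.16. Among them *Eya2*, encoding a transcriptional cofactor, was at 18.7 and 15.7 CPM against 6.77 and 6.72 CPM (1.35) and kept its call in the non-cartilage comparison (1.15). The early growth response gene *Egr1* was not called, at 230 and 233 CPM against 247 and 257 CPM. Of 9 tendon differentiation genes counted without *Agtr2* and *Igf1*, 5 were higher and none lower, with a median of 0.67, and 4 were higher in the non-cartilage comparison, with a median of 0.63. They were *Fmod*, *Thbs4*, *Cpxm2*, *Chodl* and *Col14a1*. *Chodl*, encoding the membrane protein chondrolectin, had the largest fold change of this list at a low level, 6.54 and 4.01 CPM against 0.654 and 0.746 CPM (2.90). *Cpxm2*, a gene of the carboxypeptidase X family, was at 68.6 and 71.97 CPM against 11.2 and 10.8 CPM (2.67, SE 0.063, edgeR adjusted p = 3.39e-15) and was as far apart without cartilage-rule cells (2.52). *Col14a1*, a collagen that sits on fibril surfaces, was at 103 and 127 CPM against 71.7 and 72.8 CPM, but at 0.051 on the log2 scale in the non-cartilage comparison. Tenascin C, a glycoprotein of tendon matrix, missed the 1.5-fold limit with *Tnc* at 268 and 278 CPM against 208 and 177 CPM (0.51).

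Among genes at 20 CPM or more, the largest positive fold changes included genes outside those lists. *Apod*, encoding the lipid carrier apolipoprotein D, was at 32.9 and 26.0 CPM in Tnmd-positive cells against 2.94 and 2.65 CPM in other cells, 10.5-fold higher (log2 fold change 3.39, SE 0.10, edgeR adjusted p = 6.96e-14). *Gpha2*, a glycoprotein hormone subunit gene, was at 81.6 and 42.4 CPM against 6.07 and 7.88 CPM (3.13), with an SE of 0.18, the largest among the named higher genes. Its log2 fold change was 2.42 without replicate A, 3.75 without replicate B and 1.95 (3.86-fold) in the non-cartilage comparison. *Crabp1*, encoding a retinoic acid binding protein, was at 176 and 180 CPM against 23.0 and 25.3 CPM (2.88). These genes were chosen as the largest fold changes with the same sign in both cultures, so their separation in each culture follows from that choice. *Itih5*, *Brinp1*, *Egfl6*, *Slpi* and *Ccn3* were between 5.51-fold and 6.37-fold higher. *Itih5* encodes a hyaluronan-binding protein chain, *Egfl6* a matrix protein with EGF repeats, *Slpi* a secreted protease inhibitor and *Ccn3* a matricellular protein. The tested genes named as higher kept their call in the non-cartilage comparison, at log2 fold changes between 1.80 for *Egfl6* and 3.15 for *Apod*. They were also called when the other cells were drawn to the same depth, from 2.35 for *Slpi* to 3.69 for *Apod*.

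**Figure D3:**
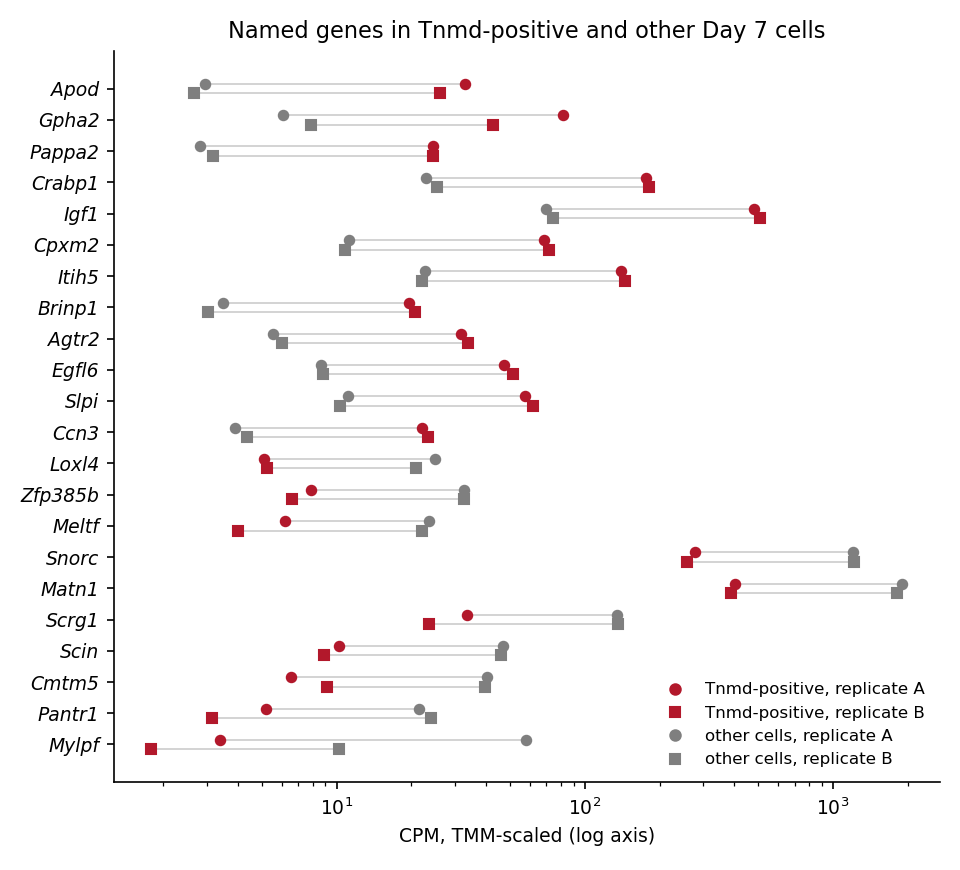
Level in TMM-scaled CPM (horizontal log axis) of the named Day 7 genes (vertical axis) in Tnmd-positive cells (red) and other cells (grey) of replicate A (circles) and replicate B (squares), a line joining both classes of a library; Igf1 and Agtr2 are shown as a description. Apod lies at 32.9 and 26.0 CPM against 2.94 and 2.65 CPM, and the other cells of Mylpf differ between cultures at 58.0 and 10.2 CPM.

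Several genes of the insulin-like growth factor system were higher in Tnmd-positive cells. IGF1 signals through the receptor of *Igf1r* and is held by binding proteins that the protease of *Pappa2* can cut. Of 16 genes of this system counted without *Igf1*, 5 were higher and 2 lower. *Pappa2* was at 24.4 and 24.4 CPM against 2.82 and 3.17 CPM (3.03, SE 0.11, edgeR adjusted p = 1.1e-12). The binding protein genes *Igfbp2* (395 and 404 CPM against 98.2 and 99.6 CPM, 2.01), *Igfbp3* (165 and 186 CPM against 76.1 and 75.8 CPM, 1.21) and *Igfbp6* (22.0 and 20.1 CPM against 6.99 and 7.15 CPM, 1.57) were higher, as was *Igfbp4* (0.69). All of these but *Igfbp4* were also higher in the non-cartilage comparison. *Igf1r* was alike at 92.2 and 97.5 CPM against 91.0 and 90.5 CPM, and *Igf2r*, a clearance receptor, and *Stc2*, an inhibitor of the protease PAPP-A, were lower by the test (-0.71 and -1.01), both without a call when cartilage-rule cells were left out. Of 6 angiotensin genes counted without *Agtr2*, *Ace*, encoding angiotensin-converting enzyme, alone was higher, at 3.08 and 2.29 CPM against 0.948 and 0.810 CPM (1.61). The type 1a receptor gene *Agtr1a* was at 4.44 and 4.44 CPM against 3.93 and 4.60 CPM.

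Collagen genes differed in number of calls between both references. Of 18 collagen genes, 8 were higher and 2 lower (median log2 fold change 0.56), against 2 higher and none lower in the non-cartilage comparison (median 0.14). *Col1a1* was at 2985 and 3239 CPM against 1803 and 1674 CPM (0.84), *Col1a2* rose by a like amount (0.85), and *Col3a1* was at 866 and 834 CPM against 430 and 407 CPM (1.02). None of these 3 genes was called in the non-cartilage comparison, which gave 0.19, 0.38 and 0.46. *Col8a1*, a short-chain network collagen, was at 272 and 342 CPM against 84.2 and 85.0 CPM (1.85, SE 0.054, edgeR adjusted p = 4.51e-14) and, with *Col6a3*, encoding a chain of microfibrillar collagen VI, was the pair that stayed called (1.17 and 0.65). *Col11a1*, a collagen of cartilage fibrils, was lower (-1.24).

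Among 13 small leucine-rich proteoglycan genes, whose products coat collagen fibrils, 2 were higher and 3 lower (median 0.17), and 4 were higher and 2 lower in the non-cartilage comparison (median 0.48). Asporin led with *Aspn* at 465 and 498 CPM against 156 and 148 CPM (1.67), and *Fmod* was the other. The lower genes were *Omd* (-1.90), *Epyc* (-1.95) and *Chad* (-1.91), of which *Epyc* and *Chad* are cartilage genes. Decorin and lumican depended on the reference. *Dcn* was at 112 and 95.5 CPM against 138 and 149 CPM (-0.47, not called), and higher by 0.81 in the non-cartilage comparison, and *Lum* went from 0.48 without a call to 0.62 with one. Of 22 genes for collagen processing and cross-linking, 2 were higher and 2 lower without cartilage-rule cells. Against all other cells 2 were higher, the lysyl oxidase gene *Lox* (269 and 285 CPM against 185 and 173 CPM, 0.63) and *Adamts2*, the procollagen N-proteinase gene (11.3 and 13.0 CPM against 3.51 and 3.85 CPM, 1.72), and 6 were lower, among them *Loxl4* at 5.11 and 5.23 CPM against 24.8 and 20.8 CPM (-2.14). Microfibril and elastic fibre genes had 7 of 17 higher and none lower, against 3 higher and 1 lower in the non-cartilage comparison, with *Fbln5* (340 and 351 CPM against 160 and 147 CPM, 1.17), *Mfap5* (1.15) and *Emilin2* (1.47) called in both comparisons. Matricellular genes had 5 higher and 3 lower of 18 (median 0.038), and 2 higher and 4 lower in the non-cartilage comparison (median -0.26). Of these, periostin (*Postn*, 384 and 445 CPM against 137 and 144 CPM, 1.56) and *Ccn3* were higher under both references, and *Comp*, a thrombospondin of cartilage and tendon, was lower at 165 and 162 CPM against 533 and 492 CPM (-1.65) but not in the non-cartilage comparison (-0.27).

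Of 13 smooth-muscle-type contractile genes, 9 were higher and none lower (median 0.84). *Acta2* was at 2538.5 and 2611.5 CPM against 1268 and 1361.5 CPM (0.97), and *Tagln* at 2387 and 2423 CPM against 1132 and 1179 CPM (1.06). *Actg2*, the enteric smooth muscle actin gene, showed the widest difference among them at 225 and 301 CPM against 53.1 and 64.1 CPM (2.16, SE 0.047, edgeR adjusted p = 1.31e-15), and *Myh11* was at 4.06 and 11.1 CPM against 2.28 and 1.49 CPM (2.01). In the non-cartilage comparison, *Actg2* and *Myh11* were called (1.499 and 1.42) and the other genes of this list were not. *Cnn1*, encoding calponin, missed the fold limit at 154 and 171 CPM against 108 and 110 CPM (0.57). Skeletal muscle genes are another matter. Of 10, 8 were lower and none higher, against 2 lower in the non-cartilage comparison, their summed level was 41.4 and 37.6 CPM in Tnmd-positive cells against 127 and 63.0 CPM in other cells, and *Myog* was at 0.0752 and 0.215 CPM. Muscle-rule cells, 21 in replicate A and 2 in replicate B, were all among the other cells. *Mylpf*, a fast skeletal myosin light chain gene, was at 3.38 and 1.79 CPM against 58.0 and 10.2 CPM (-3.69, and -2.52 without replicate A). No cut left out muscle-rule cells alone, so their part in this difference was not tested. Without the cartilage-, macrophage- and muscle-rule cells *Mylpf* was at -0.45 and not called.

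**Figure D4:**
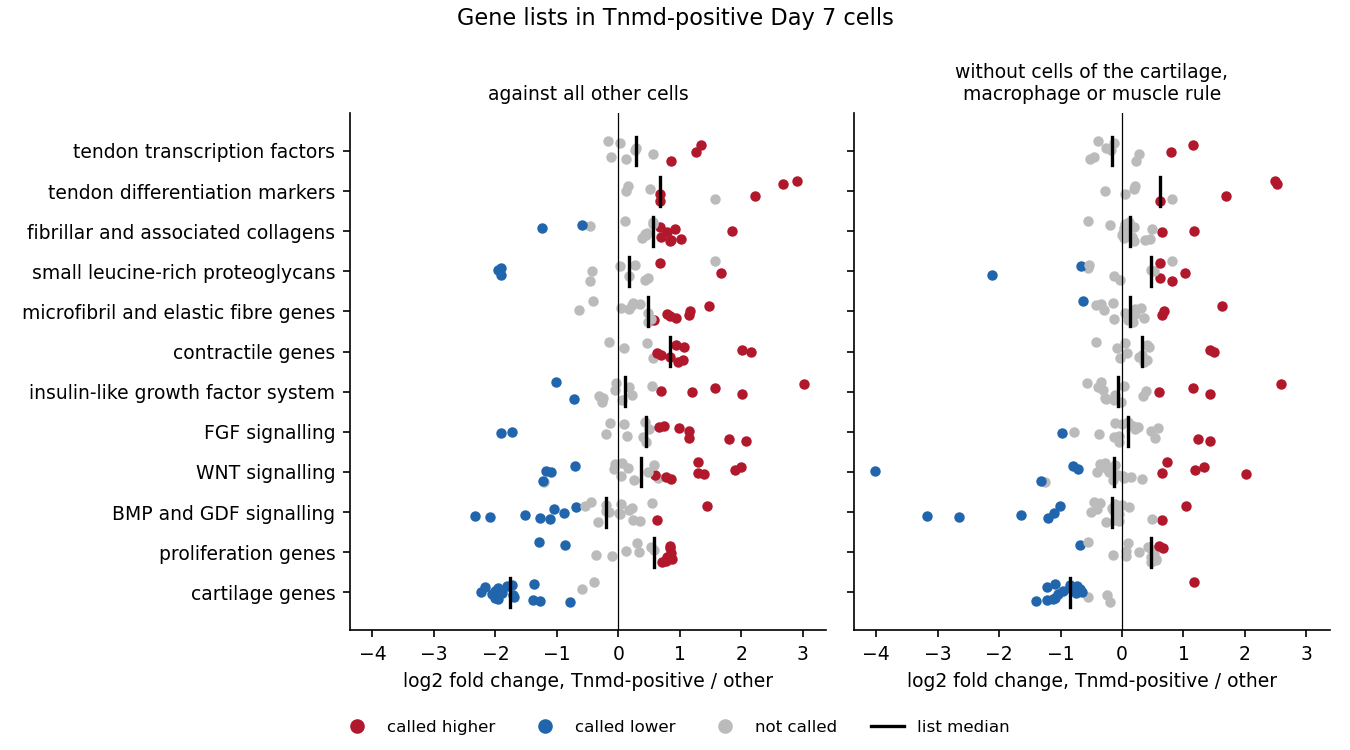
Log2 fold change of each tested gene (points, horizontal axis) of 12 gene lists (vertical axis) in Tnmd-positive Day 7 cells, against all other cells (left) and without cells that met the cartilage, macrophage or muscle rule (right); red and blue points were called higher and lower, grey points were not called and black bars are list medians, with Agtr2 and Igf1 left out. Contractile genes had 9 of 13 called higher on the left and 2 on the right, and cartilage genes had 16 of 18 called lower on the left and 14 on the right.

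Most cartilage genes were lower. Of 18, 16 were lower and none higher (median -1.77), and 14 were lower and 1 higher in the non-cartilage comparison, where cells were left out on *Acan* and *Matn1*, so that these 2 genes were used by the rule. *Col2a1* was at 2541 and 2375 CPM against 9907 and 9236 CPM (-1.96), and -1.13 in the non-cartilage comparison. *Sox9*, the master factor gene of chondrocytes, was at 184 and 181 CPM against 318 and 314 CPM (-0.79) and lost its call there (-0.19), whereas its partners *Sox5* (-1.28 and -1.40) and *Sox6* (-1.39 and -1.22) kept theirs. *Cnmd*, encoding chondromodulin, the closest relative of tenomodulin, was at 154 and 161 CPM against 566 and 534 CPM (-1.80). *Snorc* and *Matn1*, cartilage matrix genes, were among the named lower genes at 4.51-fold and 4.70-fold, with *Scrg1*, *Scin*, *Cmtm5*, *Meltf*, *Zfp385b* and the noncoding RNA gene *Pantr1* (5.19 and 3.15 CPM against 21.5 and 23.9 CPM, -2.45). *Pantr1* was as low in the non-cartilage comparison (-2.61), while *Meltf* lost its call (-0.70) and *Zfp385b* was level (0.054). *Cmtm5* (-1.44), *Snorc* (-1.22), *Scin* (-1.16), *Matn1* (-0.65) and *Scrg1* (-0.63) stayed called there at smaller differences.

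Joint genes were mixed. Of 12 joint and articular genes, 3 were higher and 4 lower (median -0.089), against 2 higher and 5 lower in the non-cartilage comparison (median -0.58). *Gdf5*, encoding the growth factor of the joint interzone, was at 3.23 and 2.01 CPM against 9.69 and 12.5 CPM (-2.09, SE 0.18, edgeR adjusted p = 6.71e-08). The lubricin gene *Prg4* differed between cultures, at 4.36 and 20.9 CPM against 46.7 and 31.2 CPM (-1.58), and without dividing cells it was at -0.015 and not called. Higher were *Cilp2* (14.1 and 15.8 CPM against 5.82 and 5.49 CPM, 1.40), *Sfrp2* (1.29) and *Cilp*, the last at under 1 CPM in every sum. Of 18 limb patterning factors 4 were higher and 5 lower (median -0.015), and 4 were higher and 6 lower in the non-cartilage comparison. *Hoxa13*, a distal limb factor gene, was lower at 3.83 and 2.37 CPM against 11.5 and 10.6 CPM (-1.84), as were *Hoxd13* (-0.94) and *Msx1* (-1.93), all of them also in the non-cartilage comparison. *Emx2* (8.04 and 7.03 CPM against 1.37 and 1.52 CPM, 2.38), *Tbx2* (1.67), *Shox2* (0.59) and *Meis1* (0.70) were higher, of which *Meis1* was not called in the non-cartilage comparison (0.34). *Lmx1b*, the factor that gives the limb its dorsal side, was higher at 7.97 and 11.3 CPM against 3.83 and 4.33 CPM (1.24).

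Signalling genes were called in both directions. FGF signalling had 7 higher and 2 lower of 17. The ligand genes *Fgf7* (62.8 and 57.0 CPM against 14.1 and 14.1 CPM, 2.09), *Fgf9* (1.80) and *Fgf10* (1.15) were higher together with the feedback inhibitor genes *Spry1* (1.15), *Spry4* (0.98) and *Dusp6* (0.67) and the target *Etv4* (0.75), and the receptor genes *Fgfr3* (35.5 and 29.2 CPM against 127 and 115 CPM, -1.91) and *Fgfr4* (-1.74) were lower. *Fgf7* and *Fgf9* were the FGF genes called higher in the non-cartilage comparison, and *Fgfr3* the one called lower. WNT signalling had 8 higher and 4 lower of 22, against 5 higher and 4 lower in the non-cartilage comparison, with the secreted inhibitors *Dkk2* (42.3 and 47.7 CPM against 10.9 and 13.4 CPM, 1.89), *Sfrp1* (1.40) and *Sfrp2*, the R-spondin gene *Rspo2* (15.1 and 14.2 CPM against 3.71 and 3.64 CPM, 1.99) and *Nkd2* (1.30) called higher under both references. *Rspo3*, another R-spondin, was lower (104 and 98.1 CPM against 171 and 161 CPM, -0.71).

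Over all tested genes 6.67% were higher and 6.36% lower, so counts of 1 or 2 in the next lists are not read as pathway results. BMP and GDF genes had 2 higher and 8 lower of 24, and 2 higher and 6 lower in the non-cartilage comparison. *Bmp4* was higher (61.6 and 78.1 CPM against 45.2 and 45.01 CPM, 0.63), and *Gdf5*, *Gdf6*, *Gdf10*, *Bmp7* and *Bmpr1b* were lower under both references. In the TGF-beta list, a pathway needed for tendon formation in mice, 3 of 19 were higher and 1 lower, against none higher and 2 lower in the non-cartilage comparison. *Tgfb3* was at 72.1 and 80.3 CPM against 45.5 and 43.8 CPM (0.77), while *Tgfb2* was at 85.2 and 89.5 CPM against 152 and 152 CPM (-0.80), and in the non-cartilage comparison *Tgfb2* remained lower and *Tgfb3* was not called (0.25). Hedgehog genes had 1 higher, the inhibitor gene *Hhip* (1.09), and 1 lower, *Ihh* (-1.69), of 8, neither of them called in the non-cartilage comparison. Of 19 integrin and mechanosensing genes 3 were higher and 2 lower, against 1 higher and 3 lower in the non-cartilage comparison, with the fibroblast cadherin gene *Cdh11* at 374 and 362 CPM against 202 and 191 CPM (0.90) and *Itga10*, encoding a collagen receptor chain of cartilage, at -1.62. In that comparison *Cdh11* was not called (0.44) and *Itga10* was lower (-1.11). Of 18 protease and inhibitor genes 5 were higher and 1 lower, against 1 higher and 3 lower in the non-cartilage comparison, and *Adamtsl1* (50.4 and 49.0 CPM against 20.1 and 20.2 CPM, 1.30) was the one called higher under both references.

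Sheath and fibroblast genes had 5 higher and 3 lower of 15, and 2 higher and 1 lower in the non-cartilage comparison. *Cd34*, a surface glycoprotein gene of fibroblast progenitors and endothelium, was at 10.3 and 8.32 CPM against 1.11 and 1.45 CPM (2.86, SE 0.17, edgeR adjusted p = 3.77e-10; 2.12 in the non-cartilage comparison), and *Ly6a*, another progenitor surface gene, was lower (36.0 and 32.7 CPM against 55.8 and 50.3 CPM, -0.63). *Pdgfra* was higher (0.73) and *Pdgfrb* was not called (0.14). *Tppp3*, a marker of tendon sheath progenitors, was called higher at a low level, 7.07 and 7.31 CPM against 4.90 and 4.31 CPM (0.65), and was not called in the non-cartilage comparison. Of the 8 muscle connective tissue genes 3 were higher and 2 lower, the latter being *Osr1* (-1.09) and *Osr2* (-1.27), and 1 was higher and 2 lower in the non-cartilage comparison. The 4 genes that the study used for perichondrium had 3 higher and none lower (*Thbs2*, *Col1a1* and *Fbn2*), and none was called in the non-cartilage comparison, and the list was chosen by the study on these samples.

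Transcripts of dividing cells were found in a larger share of Tnmd-positive cells. Cells with 2 or more UMIs of *Top2a*, *Mki67*, *Cdk1* and *Birc5* together made up 55.6% and 53.1% of them and 33.2% and 28.8% of the other cells, and depth, which sets this share in part, differed as given above. After thinning to 3000 UMIs, *Top2a* UMIs were in 21.7% and 25.3% of Tnmd-positive against 14.6% and 12.9% of other cells. Of 17 proliferation genes 8 were higher and 2 lower. *Top2a* was at 215 and 252 CPM against 140 and 133 CPM (0.77), and the cell cycle inhibitor genes *Cdkn1c* (1057 and 998 CPM against 2490 and 2538 CPM, -1.29) and *Cdkn1a* (149 and 149 CPM against 275 and 272 CPM, -0.87) were lower. In the non-cartilage comparison 2 were higher, *Mcm5* and *Tyms*, and 1 was lower, with a list median of 0.47 against 0.58 with all other cells. With other cells drawn to the same depth, 8 were higher and 2 lower. With the cells that met this cycling rule left out, none of the 17 was higher, and the rule itself uses 4 of them.

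Markers of other cell types were looked at as whole lists. Single calls in these short lists are not read as results about a cell type, since 6.67% of all tested genes were higher and 6.36% lower. Macrophage and osteoclast genes summed to 55.8 and 75.6 CPM in Tnmd-positive and 57.6 and 73.9 CPM in other cells, with 3 of 10 lower and none higher. In the non-cartilage comparison, which leaves out cartilage-, macrophage- and muscle-rule cells together, 1 of 8 was higher and none lower. Of 6 endothelial genes 1 was higher, *Tek* at 0.601 and 0.502 CPM, and *Cdh5* was below the count filter. The list summed to 21.2 and 20.1 CPM against 16.1 and 15.6 CPM, of which *Egfl7* gave 19.9 and 19.1 CPM against 15.1 and 14.5 CPM, and *Pecam1* was at 0.376 and 0.215 CPM against 0.488 and 0.612 CPM. The part of endothelial cells in the *Cd34* difference was not tested. Of 6 pericyte genes 2 were higher (*Kcnj8* and *Abcc9*) and 2 lower (*Rgs5* and *Cspg4*), and the list summed to 79.7 and 76.8 CPM against 173 and 149 CPM. Schwann and neural genes had 1 of 6 lower, and erythroid genes none of 5 in either direction, with 0 CPM in the Tnmd-positive cells and at most 0.0466 CPM for any gene in the other cells. Of 7 epithelial genes *Krt8*, *Krt18* and *Fgf8* were higher and *Krt14* lower, at a summed level of 89.6 and 60.0 CPM against 36.0 and 33.5 CPM, while none was higher and 2 were lower in the non-cartilage comparison, and *Epcam* was at 0.601 and 0.287 CPM. Of 12 hypertrophy and bone genes 1 was higher (*Phex*) and 3 lower, against none and 1 in the non-cartilage comparison. Of 11 dissociation response genes none was higher and 2 were lower (*Atf3* and *Dusp1*), and 8 were lower in the non-cartilage comparison (median -0.81).

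Whether these differences were present on the other days was asked by testing the difference between days of the log2 ratio between classes. From Day 2 to Day 7, the class difference moved up for 996 genes (5.51%) and down for 422 (2.34%), and from Day 7 to Day 10 up for 112 (0.62%) and down for 358 (1.98%). Without the cells that met the cartilage, macrophage or muscle rule, the first count was 431 up and 437 down and the second 145 up and 124 down. Without dividing cells they were 521 up and 193 down, and 42 up and 200 down. DESeq2 gave 55 up and 226 down for the second, and a fit without the library block 44 up and 155 down. Of the 1418 and 470 genes called, 505 and 148 were also called without the cartilage-, macrophage- and muscle-rule cells. These comparisons share the Day 7 libraries. The other cells changed in make-up, since cartilage-rule cells were 1.10% and 1.23% of them at Day 2. They were 50.8% and 44.6% at Day 7, and 30.6% and 30.7% at Day 10. A difference between days can thus come from either class, and the part of this change in it was not tested. *Igf1* in Tnmd-positive cells averaged 79.8 CPM at Day 2, 494 CPM at Day 7 and 293 CPM at Day 10, against 32.3, 72.05 and 72.7 CPM in other cells, and *Agtr2* averaged 2.16, 32.8 and 7.78 CPM against 0.731, 5.79 and 1.88 CPM. Both were thus highest at Day 7 within Tnmd-positive cells, which is a description. *Scx* averaged 237, 68.8 and 94.3 CPM against 108, 38.0 and 62.2 CPM and its class difference was not called between days.

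*Slpi* turned around between Day 2 and Day 7. At Day 2 it was at 0.229 and 0.399 CPM in Tnmd-positive and 2.81 and 2.71 CPM in other cells, and at Day 7 at 57.5 and 61.7 against 11.05 and 10.3 CPM, a difference of log2 ratios of 5.64 (SE 0.59, edgeR adjusted p = 1.94e-06). *Sfrp2* (80.9 CPM against 246 CPM on average at Day 2, 76.8 against 31.4 CPM at Day 7), *Cryab*, encoding the small heat shock protein alpha-B-crystallin, and *Lbp*, encoding a lipopolysaccharide binding protein, did likewise. For *Sfrp2* the level changed little in Tnmd-positive cells and fell in the other cells. The other cells held few cartilage-rule cells at Day 2 and many at Day 7, as given above, and the part of this in the differences was not tested. *Col14a1* was at 8.94 and 6.11 CPM against 34.4 and 25.1 CPM at Day 2 and so was lower there in Tnmd-positive cells, and higher at Day 7 (2.65). *C1qtnf3*, a gene of the C1q and TNF related family known from cartilage growth, went from 21.6 and 14.2 CPM against 2.87 and 2.49 CPM at Day 2 to 30.4 and 35.6 CPM against 59.0 and 61.1 CPM at Day 7 (-3.61). *Smpd3* and *Loxl4* also moved from above to below the other cells, with at most 0.930 CPM in Tnmd-positive cells at Day 2.

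**Figure D5:**
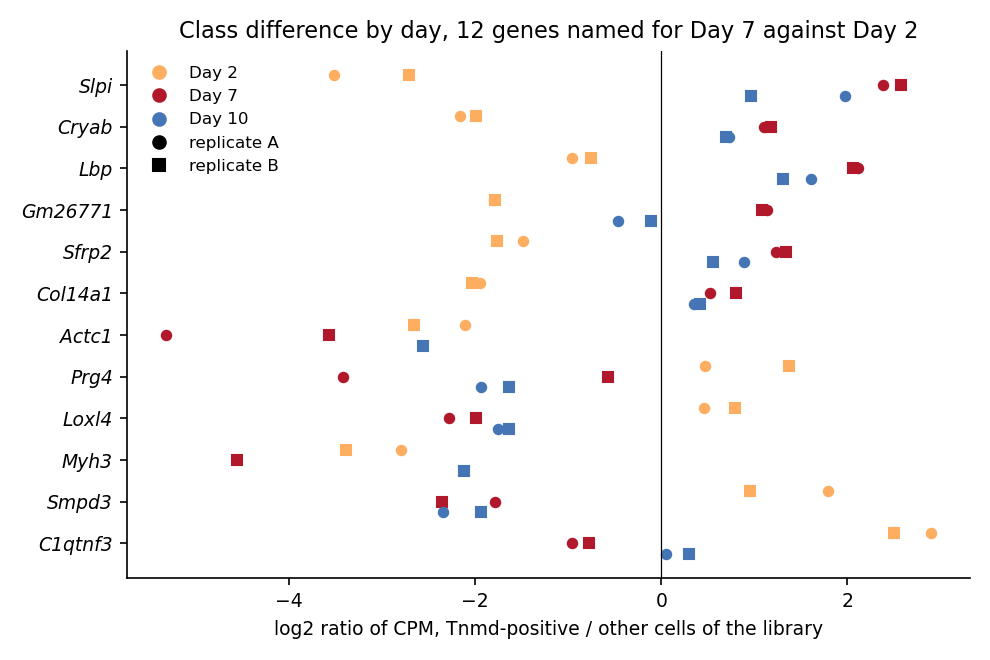
Log2 ratio of CPM between Tnmd-positive and other cells of the same library (horizontal axis) for the 12 genes named for Day 7 against Day 2 (vertical axis), at Day 2 (orange), Day 7 (red) and Day 10 (blue) in replicates A (circles) and B (squares); sums of Tnmd-positive cells with no UMI of the gene are not drawn. Slpi, Cryab, Lbp, Gm26771, Sfrp2 and Col14a1 lie left of 0 at Day 2 and right of it at Day 7, and Prg4 spreads between the Day 7 replicates.

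From Day 7 to Day 10 the class difference moved up for 2 and down for 4 of 18 collagen genes, up for 2 and down for 1 of 13 small leucine-rich proteoglycan genes, and up for none and down for 3 of 16 genes of the insulin-like growth factor system counted without *Igf1*. Over all tested genes the shares were 0.62% up and 1.98% down. *Col3a1* averaged 850 CPM against 418 CPM at Day 7 and 949 CPM against 710 CPM at Day 10 (difference of log2 ratios -0.60), and *Aspn*, *Fgf7*, *Igfbp2*, *Igfbp3* and *Igfbp6* also had a called negative difference, from -0.64 for *Igfbp2* to -1.10 for *Igfbp6*. *Chad*, *Col15a1*, *Col26a1* and *Dcn* went the other way. *Dcn* moved by 0.89 (edgeR adjusted p = 1.68e-06), from 104 CPM against 144 CPM at Day 7 to 96.4 CPM against 71.7 CPM at Day 10, although its Day 7 difference was not called against all other cells and was higher in the non-cartilage comparison, as given above. *Alpl*, the alkaline phosphatase gene, was at 22.9 and 23.6 CPM against 18.7 and 16.8 CPM at Day 7 and at 43.1 and 56.8 CPM against 95.1 and 107.4 CPM at Day 10 (-1.42). *Tyrobp*, *Fcer1g*, *Acp5* and *Cxcl2* also had called negative differences. *Fcer1g*, a gene of myeloid cells, averaged 11.5 CPM at Day 7 and 46.9 CPM at Day 10 in the other cells, which held 27 and 43 macrophage-rule cells at Day 7 and 129 and 175 at Day 10 in replicates A and B, and the part of those cells in the difference was not tested.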

How the data were processed

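Single cell gene expression was measured in 6 droplet libraries, 1 per culture (A or B) on each of Day 2, Day 7 and Day 10. Per the submitters' processing notes and the study's methods, the authors ran Cell Ranger 6.1.2 against the mouse genome GRCm38 (mm10) and deposited filtered matrices of UMI counts per gene and cell, which are not normalised, and they analysed them in Seurat 4.1.0. From the deposited counts, cells were kept at 3000 or more UMIs, at most 7500 genes and at most 25% mitochondrial UMIs, and Tnmd-positive cells had 2 or more *Tnmd* UMIs. The members, the named markers and the gene lists were chosen with earlier results of these data known. No doublet caller was run.

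UMIs were summed per library and class (12 sums), *Tnmd* was removed, and genes were kept by filterByExpr. edgeR 4.0.16 (R 4.3.3) fitted a quasi-likelihood model with TMM scaling, a block for the library and a class term for each day to all sums, which shared 1 estimate of the spread. Calls needed a Benjamini-Hochberg adjusted p under 0.05 and at least 1.5-fold. Replicate letters named independent cultures. With the library block, p-values test whether the log2 ratio between classes, or its difference between days, departs from 0. The spread used is that of the ratio between cultures of a day, pooled over all days and moderated across genes. A small p-value is thus not a measure of agreement between the Day 7 cultures alone. The fit had 3 residual degrees of freedom, and 13.4 prior degrees of freedom were borrowed across genes. The classes of a library share its droplets and were paired by the library block. The sums held 13370527 to 225266230 UMIs (at Day 7, 13820252 and 14492889 in Tnmd-positive cells), so that genes of low level are the least precise. SEs were computed as the log2 fold change over the root of the F statistic. On simulated Day 7 counts of 18069 genes, the test called 16 of 50 genes changed 1.5-fold, 39 of 50 changed 2-fold and 50 of 50 changed 4-fold, with 6 false calls. The simulation gave all genes the same spread, larger than the common spread of these data. It changed only genes of higher counts and planted no other class difference. A call needs an estimate of at least 1.5-fold, so many true 1.5-fold changes must be missed. These numbers check the procedure and do not give its error rates on these data. Genes named for Day 7 were the 12 largest called positive and the 10 largest called negative fold changes at 20 CPM or more with 1 sign in both cultures, for each difference between days the 6 largest in each direction, and members of the lists. Alternatives changed the scaling, test (DESeq2 1.42.0), filters, *Tnmd* minimum, depth, dividing cells, block and libraries. Python 3.11.15 with scipy 1.17.1 gave exact binomial (Clopper-Pearson) intervals at the 95% level. Values of some list members are not reported here.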

Additional observations from a re-analysis of the deposited data

Results flagged for a closer look

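For 24 differences between days, the log2 ratio between Tnmd-positive and other cells differed by edgeR's test of the difference itself. Levels below are mean TMM-scaled CPM over both cultures, Tnmd-positive cells first. From Day 2 to Day 7 the ratio moved up for *Slpi* by 5.6424, *Cryab* by 3.2358, *Lbp* by 2.9724, *Gm26771* by 2.9044, *Sfrp2* by 2.9025 and *Col14a1* by 2.6512. *Cryab* was at 8.89 against 37.9 CPM at Day 2 and at 151 against 68.6 CPM at Day 7. *Lbp* was at 1.16 against 2.14 CPM and then at 30.5 against 7.18 CPM.

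It moved down for *C1qtnf3* (-3.6066), *Smpd3* (-3.4538), *Myh3* (-2.8434), *Loxl4* (-2.7667), *Prg4* (-2.525) and *Actc1* (-2.4795). *Myh3* and *Actc1* are muscle genes, and *Myh3* had no UMI in the Day 7 Tnmd-positive cells of replicate A, so its value depends on the prior count. *Prg4* was at 4.36 and 20.9 CPM in the Day 7 Tnmd-positive cells of replicates A and B.

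From Day 7 to Day 10 the ratio moved up for *Mylpf* by 2.1422, *Sparcl1* by 1.2932, *C1qtnf3* by 1.0412, *Sorbs2* by 0.9719, *Col26a1* by 0.9638 and *Dcn* by 0.8912. It moved down for *Tyrobp* (-2.7979), *Cxcl2* (-2.3348), *Fcer1g* (-2.1659), *Acp5* (-1.435), *Alpl* (-1.4198) and *Cadm1* (-1.402). *Tyrobp* was at 8.55 against 9.63 CPM at Day 7 and at 4.21 against 33.9 CPM at Day 10.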

How the results depend on the processing

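The Day 7 counts stayed within 1.5 times the reported ones (1206 higher, 1150 lower) under the other scaling, test, filters, *Tnmd* minimums, depth, block and library settings listed in the processing, from 981 to 1283 higher and from 826 to 1248 lower. Like counts need not be the same genes. Of the 2356 Day 7 calls, 97.9% were shared under the other scaling, 73.9% with 1 or more *Tnmd* UMIs and 61.1% without dividing cells. Without dividing cells, 31.2% of calls were shared for Day 7 against Day 2 and 34.3% for Day 10 against Day 7. The alternative without cells that met the cartilage, macrophage or muscle rule was chosen after seeing the data and gave 564 higher and 654 lower at Day 7, 431 higher for Day 7 against Day 2 and 124 lower for Day 10 against Day 7. There *Zfp385b* turned to 0.0539 on the log2 scale, and *Mylpf* and *Meltf* lost their call. With 1 or more *Tnmd* UMIs the named lower genes other than *Mylpf* were between -1.81 and -1.39, all called. Without dividing cells the differences between days had 521 higher and 193 lower (Day 7 against Day 2) and 42 higher and 200 lower (Day 10 against Day 7). For Day 10 against Day 7, DESeq2 gave 55 higher and 226 lower, and 1 or more *Tnmd* UMIs gave 69 higher. With no replicate block the pairing by library was lost, which gave 44 higher and 155 lower there, 1182 and 1092 at Day 7, and 879 and 367 for Day 7 against Day 2. A replicate block of the letter on the class difference gave 1005 and 420, and 118 and 377. The cause of these changes was not tested. Leaving out 1 library at a time gave 981 to 1078 higher and 914 to 934 lower at Day 7, 873 to 1000 and 367 to 402 for Day 7 against Day 2, and 99 to 113 and 273 to 329 for Day 10 against Day 7. Such a fit leaves a day with 1 library, assumed to vary like the others.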
